A study of Mus musculus with 6 samples.

Results

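The miR-221 and miR-222 cluster is a pair of microRNA hairpins on chromosome X of the mouse, each of which can give a mature RNA from its 5′ side (5p) and its 3′ side (3p). Its members were taken by name: the 4 mature rows mmu-miR-222-3p, mmu-miR-222-5p, mmu-miR-221-3p and mmu-miR-221-5p, written below without the prefix for mouse, out of 109108 features listed in every deposited count table. The 6 small RNA libraries came from the whole hippocampus of adult C57BL/6 males, 3 months old. All animals, the controls included, were Dicer1 flox/flox and were killed 3 weeks after tamoxifen. In 3 libraries the mice also carried CaMKIIa-creERT2, a tamoxifen-activated recombinase driven in excitatory neurons of the forebrain (Dicer1-ifKO), and in the other 3 the second genotype was wild-type (WT). Each library pooled RNA of 3 mice, so the errors given are those between pools. The series gives 12 mice for each genotype, more than the pools account for, and how these were divided over the libraries is not stated. The promoter is not one of glia, vessels or blood, whose RNA is also in the tissue. In such tissue, fewer cells of a type and less RNA per cell cannot be told apart.

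Dicer1 encodes the ribonuclease that cuts a precursor hairpin into a duplex of its arms, of which one is usually kept by an Argonaute protein as the guide and the other is lost. The guide finds messenger RNAs mainly through its seed, bases 2 to 8. miR-221 and miR-222 are made from neighbouring hairpins, are abundant in endothelium and vascular smooth muscle, are induced by nerve growth factor in rat pheochromocytoma cells, and are known to repress the cell cycle inhibitor Cdkn1b and the receptor Kit.

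The sequences below are shown because the 3p arms, which held most of the reads, share their seed, while the 5p arm has another. They are the RefSeq mature sequences (GRCm38.p6), 5′ to 3′, with the seed in capitals.
miR-222-3p: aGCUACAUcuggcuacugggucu
miR-221-3p: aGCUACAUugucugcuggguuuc
miR-221-5p: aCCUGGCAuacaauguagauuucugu
The 3p arms were identical over their first 8 bases and at 11 of 23 positions in all. Counted from 1 at the 5′ end, with the base of miR-221-3p first, they differed by U9C, G10U, U11G, C12G, U13C, G14U, C15A, U16C, G17U, U20G, U22C and C23U. Of 1738 mature mouse miRNAs in the RefSeq table, the only other one with this seed was miR-1928, which had 0 counts in all 6 libraries. No other miRNA of that table had the seed of miR-221-5p.

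The hairpins are printed with the bases of the deposited rows in capitals, the 5p row first and the 3p row after it, to show where the counted reads lie.
miR-222 hairpin: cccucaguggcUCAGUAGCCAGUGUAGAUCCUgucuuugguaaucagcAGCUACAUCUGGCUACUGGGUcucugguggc
miR-221 hairpin: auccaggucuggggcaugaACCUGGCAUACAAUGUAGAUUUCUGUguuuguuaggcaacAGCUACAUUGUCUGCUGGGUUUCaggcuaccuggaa
Both lie on the minus strand, the miR-222 hairpin at chrX:19146893-19146971 and the miR-221 hairpin at chrX:19146294-19146388, with 504 bases between them (GRCm38). GENCODE M21 has no other gene over them. The rows of miR-222-3p (19146903 to 19146923) and miR-222-5p (19146940 to 19146960) span 21 bases each, that of miR-221-3p (19146307 to 19146329) 23 and that of miR-221-5p (19146344 to 19146369) 26. The miR-222-3p row ends 2 bases short of the RefSeq sequence, and how reads that overhang a row were counted is not given in the sources used here. Folded with RNAfold, the hairpins had minimum free energies of -40.7 kcal/mol for miR-222 and -42.8 kcal/mol for miR-221. Each member has 1 place in the genome and no row on the other strand. The nearest other feature was the noncoding Gm14636, whose longest listed transcript lies 10009 bases upstream of the miR-222 hairpin and had at most 3 counts in a library.

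The libraries had 2318205 to 2739366 counts in miRNA rows in Dicer1-ifKO and 2724752 to 3179363 in WT. Features overlap and share reads, and the total over all of them is therefore not read depth. Levels are in CPM, the count of a row relative to the TMM-scaled sum over tested features, which allows for differences in composition between libraries, and they are not divided by length. The deleted gene was thinly covered, with 32 to 37 counts over its whole span in Dicer1-ifKO and 33 to 47 in WT, which checks no genotype label.

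The 3p arms were lower in Dicer1-ifKO hippocampus, to 32.2% of the WT mean for miR-222-3p and 51.0% for miR-221-3p, while the miR-222-5p groups overlapped. The members were singled out because miR-222-3p and miR-221-3p had already been seen to be low in Dicer1-ifKO. Their differences are therefore given as a description and not as a test. Where calls at a threshold are given for them below, nothing is read from those calls.

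miR-222-3p, the main product of its hairpin, had 3274, 3927 and 4236 counts in Dicer1-ifKO replicates 1, 2 and 3, against 11543, 11821 and 12572 in WT replicates 1, 2 and 3. In CPM these were 79.0, 73.9 and 90.3 in Dicer1-ifKO and 236, 247 and 271 in WT. Every Dicer1-ifKO library was far below every WT library. The means were 81.0 ± 8.42 CPM in Dicer1-ifKO and 251 ± 17.8 CPM in WT (SD, n = 3 each), a log2 change of -1.63 ± 0.14 (SE, edgeR). The gap, for which the row was picked, was much wider than the spread within a genotype, which is a description. The coefficient of variation was 10.4% in Dicer1-ifKO and 7.09% in WT, where counting error alone gives 1.62% and 0.914% in the same groups. Over the 392 tested miRNA rows with a mean of at least 50 counts, the median coefficient was 11.2% in Dicer1-ifKO and 15.9% in WT. By count, the row ranked between 74 and 83 of 2030 miRNA rows in the Dicer1-ifKO libraries and between 42 and 48 in the WT libraries.

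miR-221-3p, with the same seed, had 1856, 2139 and 2440 counts in Dicer1-ifKO replicates 1, 2 and 3, against 4621, 3762 and 4432 in WT replicates 1, 2 and 3. These are 44.8, 40.2 and 52.0 CPM in Dicer1-ifKO and 94.5, 78.7 and 95.5 CPM in WT. The groups did not overlap, and WT replicate 2 came nearest to the Dicer1-ifKO libraries. The means were 45.7 ± 5.94 CPM in Dicer1-ifKO and 89.6 ± 9.41 CPM in WT (SD, n = 3 each), a log2 change of -0.97 ± 0.16 (SE). It ranked between 94 and 107 of the miRNA rows in Dicer1-ifKO and between 76 and 83 in WT.

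Added together, the arms that carry the shared seed had 124, 114 and 142 CPM in Dicer1-ifKO replicates 1, 2 and 3, against 330, 326 and 366 CPM in WT replicates 1, 2 and 3. The mean was 127 ± 14.3 CPM in Dicer1-ifKO and 341 ± 22.2 CPM in WT (SD, n = 3 each), a ratio of 0.37. miR-222-3p made up 63.5% to 64.7% of this pool in the Dicer1-ifKO libraries and 71.4% to 75.9% in the WT libraries, so that its make-up differed along with its size. As a share of all miRNA row counts, a scale that does not use other RNA classes, the 4 members took 0.241%, 0.242% and 0.302% in Dicer1-ifKO and 0.617%, 0.570% and 0.564% in WT.

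miR-221-5p, the less abundant arm of its hairpin, had 415, 510 and 483 counts in Dicer1-ifKO replicates 1, 2 and 3, against 603, 834 and 859 in WT replicates 1, 2 and 3. In CPM it stood at 10.01, 9.59 and 10.3 in Dicer1-ifKO and at 12.3, 17.4 and 18.5 in WT. The Dicer1-ifKO libraries lay close together and below all WT libraries, and WT replicate 1 was the lowest of its group. The means were 9.97 ± 0.35 CPM in Dicer1-ifKO and 16.1 ± 3.31 CPM in WT (SD, n = 3 each), with a log2 change of -0.69 ± 0.18 (SE), which was -0.86 without WT replicate 1.

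miR-222-5p, the rarest member, had 47, 54 and 48 counts in Dicer1-ifKO replicates 1, 2 and 3, against 55, 46 and 73 in WT replicates 1, 2 and 3. The groups overlapped, at 1.13, 1.02 and 1.02 CPM in Dicer1-ifKO and 1.12, 0.96 and 1.57 CPM in WT. Its means were 1.06 ± 0.07 CPM in Dicer1-ifKO and 1.22 ± 0.32 CPM in WT (SD, n = 3 each), and its log2 change of -0.21 ± 0.22 (SE) was no larger than its error. WT replicate 3 was the only library that stood above the rest, and without it the log2 change was 0.060. At this depth the exact 95% Poisson interval of a single count, which covers counting error only, was as wide as 34.5 to 62.5 for the 47 counts of Dicer1-ifKO replicate 1, so a moderate difference was not detectable.

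**Figure D1:**
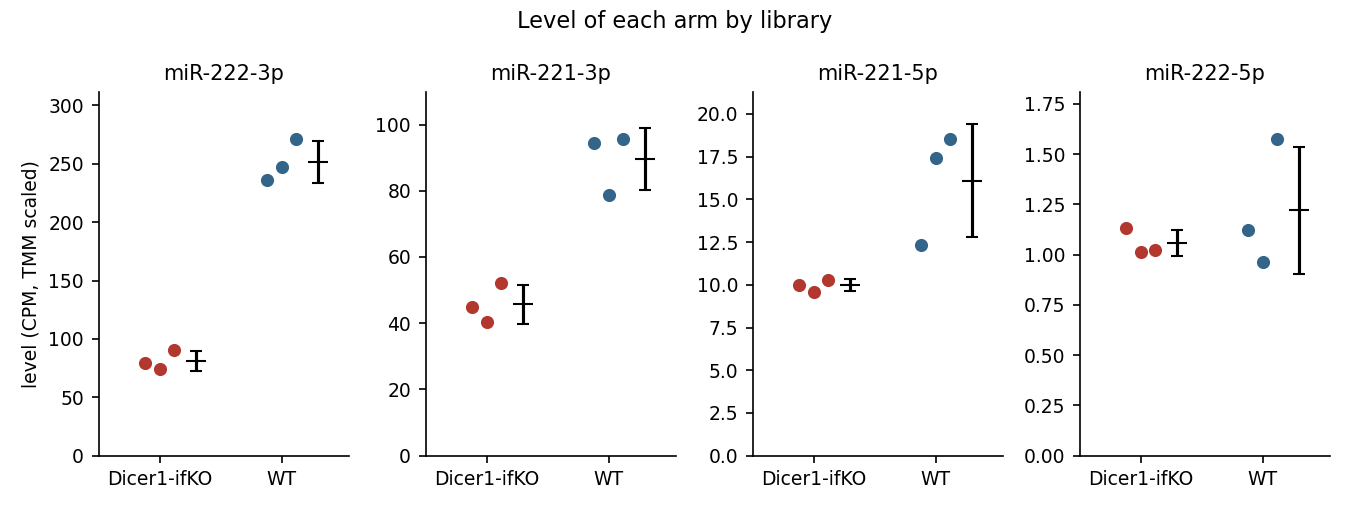
Level of each arm in CPM after TMM scaling (y axis, from 0, a scale of its own for each arm) in the 3 Dicer1-ifKO and 3 WT libraries (points, replicates 1 to 3 from left to right), with the mean and SD of each group in black. miR-222-3p averaged 81.0 CPM in Dicer1-ifKO and 251 CPM in WT, while the groups of miR-222-5p overlap.

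Read against the rest of the tables, 2 of the 4 members, the 3p arms, were below an adjusted p of 0.05 in the edgeR quasi-likelihood fit of all features, all 4 having passed its count filter. In that fit 0.795% of 6539 tested features and 6.59% of 546 tested miRNA rows were called lower in Dicer1-ifKO. In 3 of the 4 members every Dicer1-ifKO library lay below every WT library, which was so for 33.9% of the tested miRNA rows. Nothing is read from these counts, since the members were picked from this contrast. The alternative fits use the libraries from which the members were picked, so the members' calls in them are a description and no support. The log2 change of miR-222-3p was between -1.72 and -1.39 over all 15 alternative fits, past the threshold in each. That of miR-221-3p was past it in 10 of 15, and not without WT replicate 3 or Dicer1-ifKO replicate 2 (log2 -0.88 and -0.87), nor on library totals (-0.93), with scaling set by the miRNA rows (-0.73) or with a replicate block (-0.97). Scaling by the miRNA rows moved the median of all tested miRNA rows from -0.24 to 0.0013, and with it every member upwards: miR-222-3p was at -1.39, miR-221-5p at -0.44 and miR-222-5p at 0.051.

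**Figure D2:**
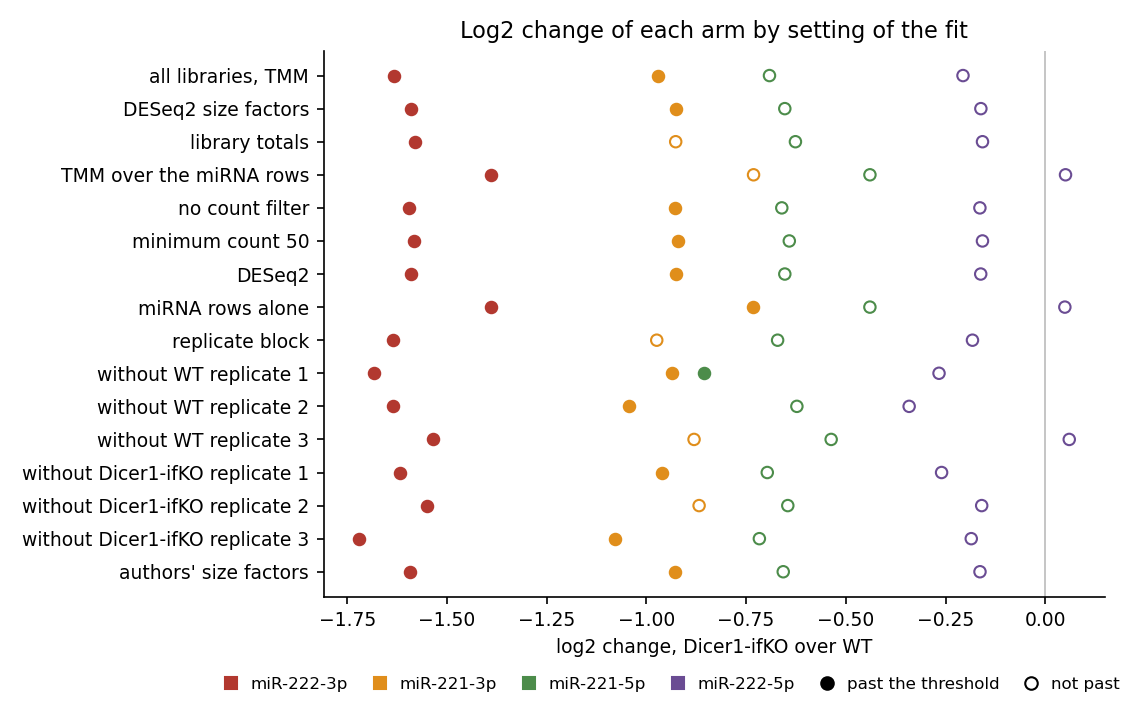
Log2 change of each arm, Dicer1-ifKO over WT (x axis), in the fit of all libraries and in 15 alternatives (y axis), with colours for the arms. Filled points are past an adjusted p of 0.05 and open points are not: miR-222-3p stays at or below -1.39 in every setting, and miR-222-5p lies on both sides of 0.

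The arms of a hairpin come from the same precursor, so their ratio within a library needs no scaling between libraries. For miR-222, the 5p arm had 14.4, 13.8 and 11.3 counts per 1000 counts of the 3p arm in Dicer1-ifKO replicates 1, 2 and 3, against 4.76, 3.89 and 5.81 in WT replicates 1, 2 and 3. The groups did not overlap, and neither did the exact 95% binomial intervals, which cover counting error only: the lowest bound in Dicer1-ifKO was 8.34 and the highest in WT 7.31. Since miR-222-3p was picked for being low in Dicer1-ifKO, a higher ratio follows in part from that choice and is a description. The mean ratio was 13.1 ± 1.60 in Dicer1-ifKO and 4.82 ± 0.96 in WT (SD, n = 3 each), 2.73 times as high. The 3p arm nonetheless held 98.6% to 98.9% of the arm counts in the Dicer1-ifKO libraries and 99.4% to 99.6% in the WT libraries.

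For miR-221, the 5p arm had 224, 238 and 198 counts per 1000 counts of the 3p arm in Dicer1-ifKO replicates 1, 2 and 3, against 130.5, 221.7 and 193.8 in WT replicates 1, 2 and 3. These groups overlapped, and WT replicate 1 alone lay well below the other 5 libraries. The means were 220 ± 20.5 in Dicer1-ifKO and 182 ± 46.7 in WT (SD, n = 3 each). The 3p arm held 80.7% to 83.5% of the arm counts in Dicer1-ifKO and 81.9% to 88.5% in WT. The less abundant arm was thus a much larger part of the miR-221 products than of the miR-222 products in every library.

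Between the hairpins, miR-222-3p had 1.76, 1.84 and 1.74 counts for each count of miR-221-3p in Dicer1-ifKO replicates 1, 2 and 3, against 2.50, 3.14 and 2.84 in WT replicates 1, 2 and 3. These counts are not scaled to the length of the rows, which does not differ between libraries. The ratio was lower in every Dicer1-ifKO library than in every WT library, with means of 1.78 ± 0.05 in Dicer1-ifKO and 2.83 ± 0.32 in WT (SD, n = 3 each). The 3p arms with the same seed were therefore not lower by the same factor in Dicer1-ifKO. Both were picked for being low there, so this is a description. Between the 5p arms, miR-221-5p had 8.83 to 10.1 counts for each count of miR-222-5p in Dicer1-ifKO and 10.96 to 18.1 in WT, without overlap but with wide counting intervals that overlapped (6.52 to 13.8 over the Dicer1-ifKO libraries and 8.31 to 24.96 over the WT libraries).

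**Figure D3:**
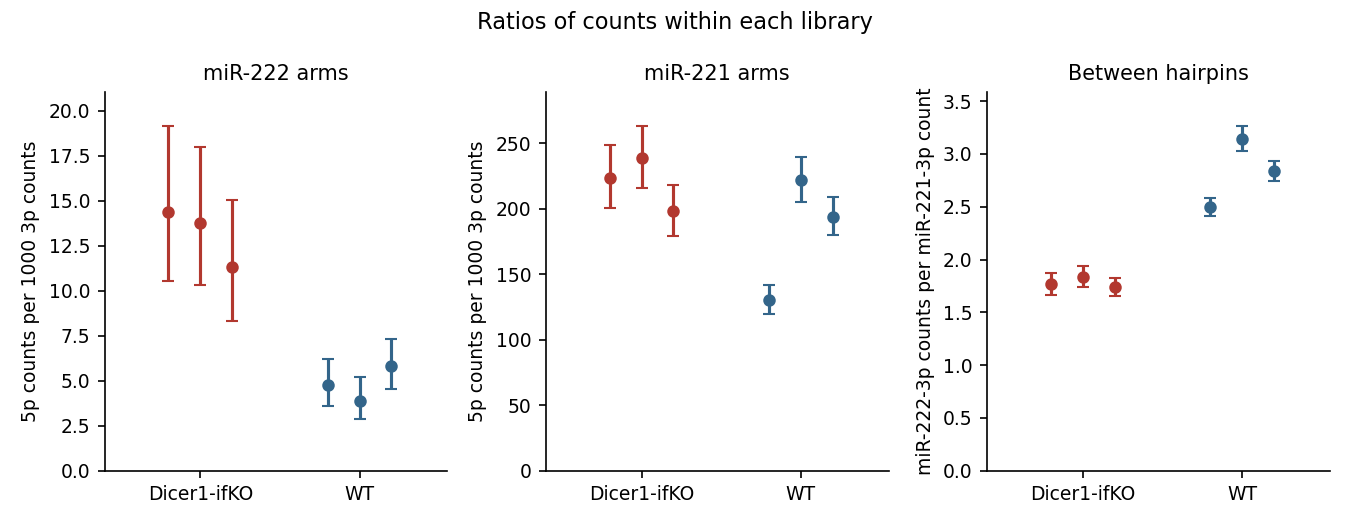
Ratios of counts within each library (points, with exact 95% binomial intervals for counting error) in Dicer1-ifKO and WT, replicates 1 to 3 from left to right: 5p counts per 1000 3p counts of miR-222 and of miR-221, and miR-222-3p counts per count of miR-221-3p. The miR-222 arm ratio averages 13.1 in Dicer1-ifKO and 4.82 in WT, and the ratio between hairpins 1.78 in Dicer1-ifKO and 2.83 in WT.

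The arms of other hairpins are given as a scale for these differences, which rest mostly on the changes of miR-222-3p and miR-221-3p for which the members were picked, so that nothing is read from their places. In 138 hairpins with both arms tested and at 1 place each, the median log2 change of the less abundant arm minus that of the more abundant arm was -0.0086, and the median of the absolute difference was 0.27. The difference was 1.43 for miR-222 and 0.28 for miR-221. Of the 91 hairpins whose less abundant arm averaged at least 50 counts, miR-222 was the second after miR-540 (1.60), and miR-221 was at place 22. With 53.8 counts on average, the miR-222-5p row was only just above that limit. Some hairpins on opposite strands of 1 place had nearly the same counts, as miR-486 with miR-3107 and miR-126a with miR-126b. The hairpins compared are therefore not all separate.

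**Figure D4:**
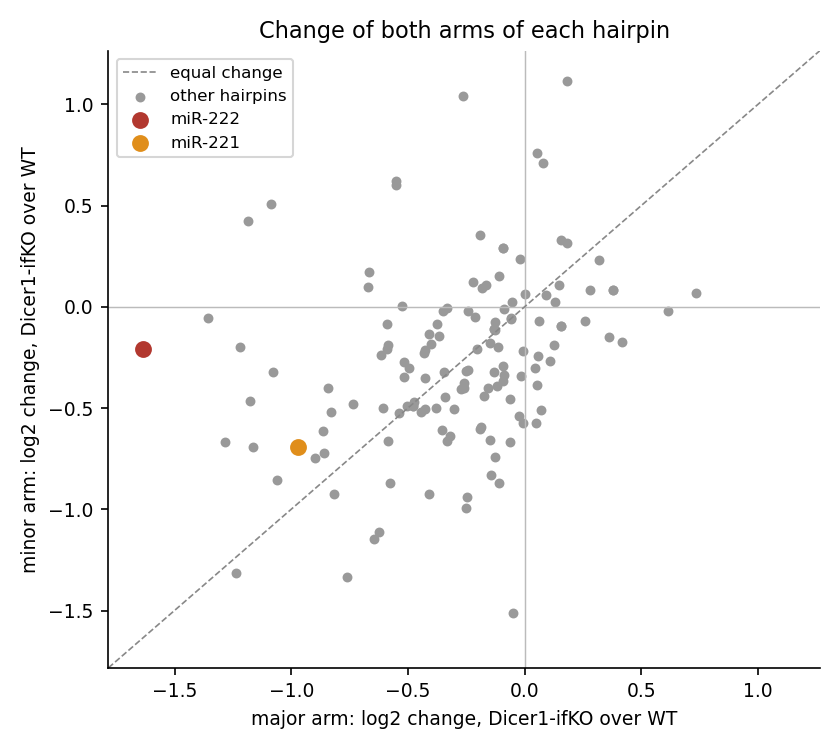
Log2 change, Dicer1-ifKO over WT, of the more abundant arm (x axis) and the less abundant arm (y axis) of 138 hairpins (points), with miR-222 and miR-221 coloured and a dashed line for equal change. miR-222 lies farthest to the left, at -1.63 on the x axis and -0.21 on the y axis, and miR-221 lies nearer the line, at -0.97 and -0.69.

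Neighbouring hairpins elsewhere in the genome give a scale for the distance between the 3p arms, which comes from the same chosen values. Among 83 pairs of neighbours on 1 strand, at most 10 kb apart and each taken by its most abundant tested row, the median absolute difference in log2 change was 0.21. It was 0.66 between miR-222-3p and miR-221-3p, and larger in 5 pairs, which were named after their values were seen: miR-144-5p with miR-451a (0.88), miR-494-3p with miR-679-5p (0.81), miR-409-3p with miR-412-5p (0.80), miR-431-5p with miR-433-3p (0.67) and miR-376a-5p with miR-300-3p (0.66). The pairs share libraries and many lie in 1 cluster of chromosome 12, so they are not independent. They had no minimum beyond the count filter of the fit. miR-144-5p averaged only 0.43 CPM in Dicer1-ifKO and 0.25 CPM in WT (log2 0.73 ± 0.30 SE).

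The rows whose profiles over the 6 libraries were most like that of miR-222-3p were miR-431-5p, miR-6944-3p, miR-672-5p, miR-409-3p and miR-187-3p. Likeness was the root mean square difference of log2 CPM after each row was centred on its own mean, which was 0.19 to 0.23 for these, against a median of 0.72 over 391 rows. miR-221-3p came at place 16 by this measure, at 0.35. The rows most like miR-221-3p were miR-495-3p, miR-378a-3p, miR-129-5p of chromosome 6, miR-99b-3p and miR-770-3p (0.10 to 0.16, against a median of 0.43), and miR-222-3p came at place 121. The measure is not scaled for the size of a change, and the 3p arms were picked for theirs. The rows nearest miR-222-3p had log2 changes of -1.22 to -1.40, and those nearest miR-221-3p -0.86 to -1.11. Nothing is therefore read from these places. Of these 10 rows, only miR-672-5p is on chromosome X.

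Of the 40 tested miRNA rows of chromosome X outside the cluster, 2 fell and 0 rose, a share near the 6.59% (36 of 546) over all tested miRNA rows. Their median log2 change was -0.12, against -0.24 over all 546. The fallen rows, named after their values were seen, were miR-672-5p (log2 -1.36 ± 0.19 SE, edgeR adjusted p = 0.0051) and miR-361-5p (-0.84 ± 0.16 SE, edgeR adjusted p = 0.026). Without Dicer1-ifKO replicate 2 neither passed (log2 -1.29 and -0.79 in the same order), nor without Dicer1-ifKO replicate 3 (-1.34 and -0.81), and miR-361-5p did not pass in 10 of its 15 alternatives, those without Dicer1-ifKO replicate 1 (-0.91), WT replicate 2 (-0.83) or WT replicate 3 (-0.72) among them. With the replicate block neither passed (-1.35 and -0.84 in the same order). At an unadjusted p under 0.05, 12 of the 40 rows were lower and 0 higher by edgeR, again near the share over all tested miRNA rows (170 of 546 lower and 11 higher), DESeq2 called 2 lower and 0 higher, and the median was 0.11 with scaling by the miRNA rows. The most abundant rows, the X-linked locus of let-7f-5p (0.12), miR-676-3p (-0.52) and miR-384-5p (-0.09), did not pass. let-7f-5p, miR-92a-3p and miR-19b-3p are also made from another chromosome, so their reads cannot be assigned to one place. The rows of miR-374b-5p and miR-374c-3p had nearly the same levels, 2.08 CPM each in Dicer1-ifKO, and 3.31 and 3.30 CPM in WT. The 40 rows are therefore not all separate.

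The cells in the tissue were followed by lists of miRNAs known from them. Of the 18 tested rows of neuron-enriched miRNAs, 2 fell and 0 rose, with a median log2 change of -0.33. Over all 546 tested miRNA rows, 36 (6.59%) fell and 0 rose, with a median of -0.24. The lack of higher rows depended on the fit: in that of miRNA rows alone, 36 were lower and 11 higher, with a median of 0.00041. With scaling by the miRNA rows, the median of the neuron-enriched list was -0.09. The fallen rows of this list were those of 1 mature miRNA, miR-129-5p, on chromosome 6 (log2 -1.04 ± 0.15 SE, edgeR adjusted p = 0.0077) and chromosome 2 (-1.15 ± 0.15 SE, edgeR adjusted p = 0.0043). The most abundant, the rows of miR-128-3p (-0.43 and -0.52), did not pass. Rows of the same mature miRNA at different places, as of miR-129-5p, miR-128-3p, miR-124-3p and miR-138-5p, had similar counts, cannot be told apart by sequence and are not independent, so their calls and sums may count a molecule more than once. The summed level of the list was 1792 to 2252 CPM in the Dicer1-ifKO libraries and 2326 to 2884 CPM in the WT libraries. Of the 5 activity-induced rows, 1 fell and 0 rose (median -0.48): miR-212-3p fell by 0.73 on the log2 scale (edgeR adjusted p = 0.048), and miR-132-3p from the same transcript was at -0.37 without passing. miR-212-3p passed in only 4 of 15 alternatives, of the single libraries only when WT replicate 1 was left out. The miR-129-5p rows of chromosomes 6 and 2 did not pass without Dicer1-ifKO replicate 2 (-0.97 and -1.12), and the first of these also not without Dicer1-ifKO replicate 3 (-1.02) or with scaling by the miRNA rows (-0.82). With the replicate block neither passed (-1.05 and -1.15 in the same order).

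Of the vascular list, which holds cell types where miR-221 and miR-222 are also made, 0 of 5 tested rows fell or rose (edgeR; median 0.15), and its summed level was 459 to 622 CPM in Dicer1-ifKO and 362 to 595 CPM in WT. Its leading rows, miR-143-3p of smooth muscle and endothelial miR-126a-5p, were at 0.15 and 0.38. The oligodendrocyte list (median 0.16, 5 rows) summed to 257 to 350 CPM in Dicer1-ifKO and 218 to 340 CPM in WT, led by miR-338-3p (0.16) and miR-219a-2-3p (0.05). The erythrocyte list (median -0.03, 4 rows) summed to 97.6 to 116 CPM in Dicer1-ifKO and 110 to 120 CPM in WT, with miR-486-5p at -0.13 and miR-451a, which Dicer does not cut, at -0.15. In none of these lists did a row pass.

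In 3 further lists no row passed either, but the summed levels of the genotypes did not overlap. The sums of the neuron-enriched list, given above, did not overlap either. Of single tested miRNA rows, 33.9% had every Dicer1-ifKO library below every WT library, so nothing is read from the lack of overlap. The microglia and leukocyte list (median 0.21, 4 rows) summed to 200 to 226 CPM in Dicer1-ifKO and 162 to 199 CPM in WT, led by miR-150-5p (0.24) and miR-142-5p (0.18), with miR-155-5p and miR-223-3p at 27 and 50 counts over all libraries. The astrocyte-enriched list (median -0.10, 6 rows) summed to 6327 to 7133 CPM in Dicer1-ifKO and 7842 to 9594 CPM in WT, most of it from the rows of miR-26a-5p (-0.42 each), which share a sequence, and the rest mainly from miR-29a-3p (-0.11). The choroid plexus and epithelial list (median -0.56, 5 rows) summed to 221.3 to 239.8 CPM in Dicer1-ifKO and 322 to 348 CPM in WT, nearly all of it miR-204-5p (-0.56 ± 0.13 SE, edgeR adjusted p = 0.067), with miR-200b-3p at -0.65. At an unadjusted p under 0.05, where 170 of all 546 tested miRNA rows were lower and 11 higher, edgeR had 1 row higher in the microglia and leukocyte list and 1 in the erythrocyte list, 2 rows lower in the astrocyte-enriched list and 1 in the choroid plexus list, 8 lower in the neuron-enriched list and 3 in the activity-induced list, and 0 in the others. DESeq2 called 0 rows in the 6 lists of other cells, and 2 and 1 lower rows in the neuron-enriched and activity-induced lists. With scaling by the miRNA rows the medians were higher throughout, and those of the astrocyte-enriched (0.14) and erythrocyte (0.20) lists changed sign. The part of these cell types in the values of miR-221 and miR-222 was not tested.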

How the data were processed

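Libraries were made from total hippocampal RNA with Illumina's TruSeq small RNA kit, per the labels. Each deposited table gives raw whole-number counts per feature, which were analysed. Beside them stands a deposited signal, per the file headers a normalized count, equal to the raw count times 1 factor per library, from which the authors' size factors were read. GRCm38 and the tools BWA, SAMtools 0.1.18, CASAVA 1.8.2 and DESeq2 are named in the submitters' processing notes with no roles. How reads were counted is not given in the sources used here. Repeats of 1 gene's counts (13139 rows) were removed.

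Features were tested with edgeR 4.0.16 in R 4.3.3 (filterByExpr with a minimum count of 10, TMM, robust glmQLFit and two-sided glmQLFTest) and p-values were adjusted by Benjamini-Hochberg over all 6539 features tested. The same fit was afterwards also run on counts simulated with means and dispersions from these data. Standard errors came from the F statistic. Alternatives were DESeq2 1.42.0, other scalings and filters, a miRNA-only fit, a replicate block and leaving out each library; the authors' size factors were added after the data were seen. Hairpins were folded with RNAfold 2.7.2 from ViennaRNA. The miRNA rows held 2318205, 2739366 and 2384984 counts in Dicer1-ifKO replicates 1, 2 and 3, and 2724752, 2889715 and 3179363 in WT replicates 1, 2 and 3. Intervals cover counting error only, as they come from the counts of single libraries. Molecular identifiers are not mentioned in the labels, so reads may include copies of 1 molecule and the intervals may be too narrow.

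The members and lists were chosen with earlier results of these data known. Named miRNAs were the members, miRNAs with their seed, the 5 rows most like each 3p arm with a mean of at least 50 counts (pseudocount 0.05 CPM), the 2 most abundant rows of each list, the 3 most abundant other rows of chromosome X, and Dicer1.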

Additional observations from a re-analysis of the deposited data

How the results depend on the processing

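The members' values under other settings are a description, since the members were picked for this contrast. The log2 change of miR-222-3p was below 0 in all 15 alternatives, and from -1.72 to -1.53 when 1 library was left out. That of miR-221-3p was also below 0 in all 15, and ranged from -1.08 to -0.87 with 1 library left out. It was not past the threshold on library totals (-0.93), with scaling by the miRNA rows (-0.73) or with the replicate block (-0.97). Nor was it past the threshold without WT replicate 3 (-0.88) or without Dicer1-ifKO replicate 2 (-0.87). miR-221-5p ranged from -0.86 to -0.54 with 1 library left out and passed only without WT replicate 1. miR-222-5p turned to 0.051 with scaling by the miRNA rows and to 0.049 in the fit of miRNA rows alone, and ranged from -0.34 to 0.060 (without WT replicate 3) with 1 library left out. The cause of these shifts was not tested.

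Over all features 52 were lower, and 23 on library totals, 11 with scaling by the miRNA rows, 6 with the replicate block and 1 (without Dicer1-ifKO replicate 2) to 140 (without WT replicate 1) with 1 library left out. Of miRNA rows 36 were lower, and under the same settings 16, 8, 3 and 1 to 70. In the fit of miRNA rows alone, 36 were lower and 11 higher, against 0 higher in the fit of all features. No sign of pairing by replicate number was seen: same-numbered libraries had correlations of deviations of -0.18, 0.08 and -0.16. Differently numbered libraries had -0.10 to 0.21. The deviations are from the mean of each genotype's 3 libraries, so the correlations are tied together and cannot show that no libraries were handled in pairs. The 46 to 73 counts of miR-222-5p limit the precision of the arm ratio of miR-222.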

Other observations

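Other hairpins also had log2 changes that lay apart between their arms. Chosen after their values were seen, and with no test of the difference, examples were miR-540 (log2 changes of 0.51 for the 5p arm and -1.09 for the 3p arm), miR-139 (0.62 for 3p and -0.55 for 5p), miR-1224 (0.60 for 3p and -0.55 for 5p) and miR-409 (-0.20 for 5p and -1.22 for 3p). In miR-672, on chromosome X, the 5p arm was at -1.36 and the 3p arm, with 41 counts on average, at -0.06.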
